A study of Homo sapiens with 9 samples.

Results

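SOCS2 and SOCS2-AS1 are a pair of human genes that share a locus on chromosome 12 and are read from opposite strands. Both were taken from the count table by exact name, which gave 2 rows (SOCS2 as XLOC_005303, SOCS2-AS1 as XLOC_005951) of 26008 gene rows in all. The rows were chosen by the levels of SOCS2 in these same libraries, which were known to rank control, V. cholerae and E. coli in rising order, so the levels of both rows are given as a description and carry no test. All libraries came from HCT8, an established human line derived from an ileocecal colorectal adenocarcinoma. Cells were seeded 16 h earlier and then kept for 5 h with 20 mM Tris-HCl (the control, labelled as not treated), with membrane vesicles of Vibrio cholerae C6706, or with membrane vesicles of Escherichia coli MC1061. Such vesicles are small particles released from the bacterial envelope that carry lipopolysaccharide, proteins and nucleic acids, and their dose is not given in the labels. Each of the 3 groups had 3 libraries of polyadenylated RNA, with replicates numbered 1 to 3. Nothing in the labels says that they came from separate cultures, so the spread between them may be technical.

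SOCS2 is a suppressor of cytokine signalling. Proteins of this family are made in response to cytokine receptors and then restrain them. An SH2 domain binds phosphorylated receptors, and a SOCS box recruits elongins B and C and cullin 5, which add ubiquitin to the bound protein. SOCS2 is best known for limiting growth hormone signalling through JAK2 and STAT5, and its own gene is a target of STAT5 and of the aryl hydrocarbon receptor. In the gut epithelium it is known as a brake on growth driven by growth hormone and insulin-like growth factor. SOCS2-AS1 is a long non-coding RNA that starts inside the SOCS2 gene and runs away from it.

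In the GENCODE 29 annotation the genes are arranged head to head. SOCS2 has 12 annotated transcripts with 6776 nt of exon, and SOCS2-AS1 has 4 with 3816 nt. Their exons overlap over 277 nt in 2 stretches, between 1510 and 1954 nt past the first base of SOCS2. That is 4.09% of the exonic length of SOCS2 and 7.26% of that of SOCS2-AS1. Exons of 4 of the 12 SOCS2 transcripts and 3 of the 4 SOCS2-AS1 transcripts take part in it. SOCS2-AS1 is the only annotated gene with an exon opposite SOCS2. The map of exons at the locus shows this arrangement. The annotation is on GRCh38 while the table was counted on hg19, so lengths and overlaps are given and coordinates are not.

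**Figure D1:**
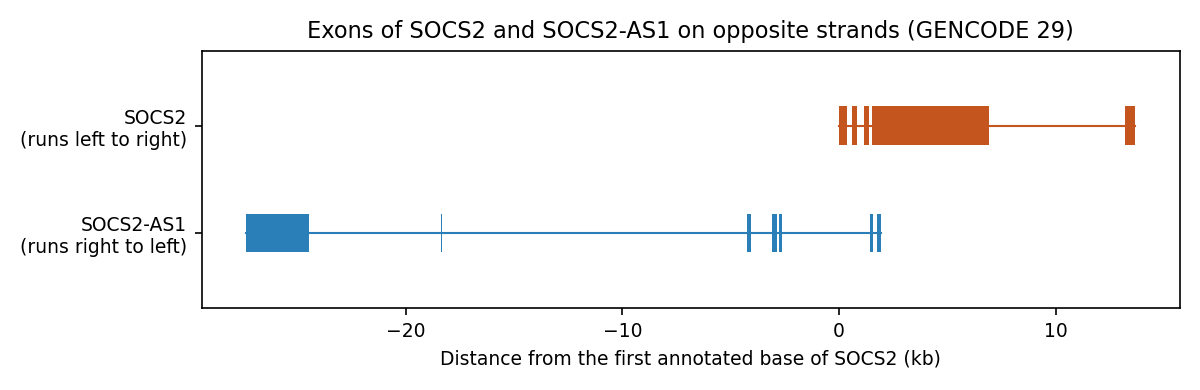
Annotated exons (boxes) of SOCS2 and SOCS2-AS1 in GENCODE 29, joined over all transcripts of each gene and placed by distance in kb from the first annotated base of SOCS2. The exons meet only near the 5′ ends, where 277 nt of the 2 genes lie opposite each other.

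Which strand the counted reads came from limits what either row can say. The kit used keeps the strand of the RNA, but which strand setting was used to count is not given in these sources. Of 23208 rows matched to an annotated gene by name, 32.3% had an exon opposite another gene, and 85.4% of matched counts fell in such rows. Counts under the names of housekeeping genes were low, with 33 to 63 per library for GAPDH and 21 to 34 for ACTB. The colonic epithelium markers gave the same picture: 11 of 11 rows had counts, but EPCAM had 5 to 17 per library, CDH1 0 to 9 and KRT20 and LGALS4 0 to 1, and most of the summed marker counts were in KRT8 (7550 to 11346 per library), which has exons opposite KRT18. Summed, these markers had 10372 to 11465 counts per control library, 7644 to 11117 with V. cholerae and 7793 to 9986 with E. coli vesicles. Leukocyte markers summed to 20 to 35, 19 to 44 and 22 to 26 counts in these groups, with PTPRC and CD3E at 0. Most of these counts were in LYZ (5 to 29 per library) and CD14 (5 to 15), in the range of EPCAM or above it. Endothelial markers summed to 5 to 10, 2 to 19 and 4 to 9, all of them in PECAM1, with CDH5, KDR and VWF at 0. Fibroblast markers had 1 count in the 9 libraries. The values below are therefore those of the rows so named. Whether the reads in the SOCS2 row came from SOCS2 transcripts or from the strand opposite them cannot be told from the table. Processed pseudogenes of SOCS2 (SOCS2P1 and SOCS2P2) are annotated and have no row of their own, and how reads matching several places were counted is not given.

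Counts are raw reads per gene row, and library totals ran from 363557 to 733412. CPM here are read counts scaled to a common library size on edgeR's TMM scale, where 1 count was worth 1.29 to 3.02 CPM. The SOCS2 row held 19, 28 and 50 counts in control replicates 1, 2 and 3, or 57.4, 76.8 and 99.6 CPM. With V. cholerae vesicles it held 87, 73 and 69 counts, or 253, 213 and 89.2 CPM. With E. coli vesicles it held 248, 215 and 191 counts, or 716, 620.3 and 424 CPM. All 3 E. coli libraries stood above all 6 others. V. cholerae replicates 1 and 2 stood above every control, while V. cholerae replicate 3 lay between control replicates 2 and 3.

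The group means of the SOCS2 row were 77.9 ± 21.1 CPM for control, 185 ± 85.5 for V. cholerae and 587 ± 149 for E. coli (SD, 3 libraries each). The order of the means was thus control, V. cholerae, E. coli, the order used in choosing the row, which 19.7% of the 3679 rows tested also had. Control and V. cholerae, neighbours in that order, overlapped. V. cholerae and E. coli did not overlap, and 4.1% of all rows tested stood higher with E. coli than with V. cholerae vesicles without overlap. Nor did control and E. coli overlap, where 5.82% of all rows tested stood higher without overlap. The coefficient of variation was 27.1% in controls, 46.2% with V. cholerae and 25.4% with E. coli vesicles, so the V. cholerae group was the most spread.

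**Figure D2:**
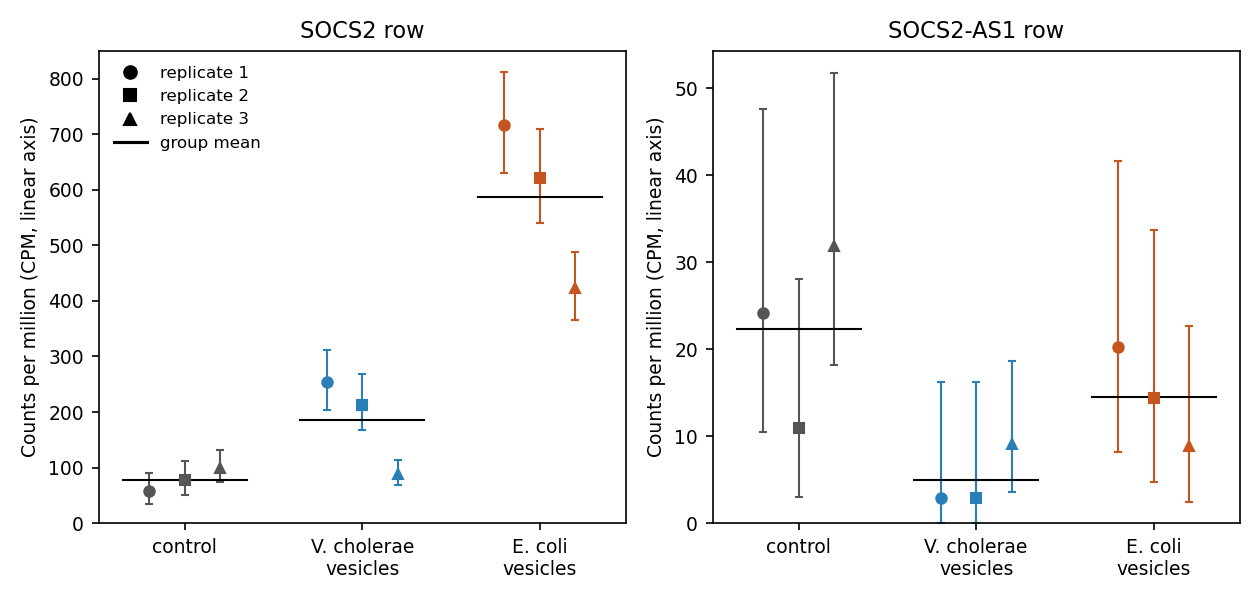
CPM of the SOCS2 row (left) and the SOCS2-AS1 row (right) in each library, with bars for the exact Poisson 95% interval (counting error only) and a line at the mean of each group of 3. SOCS2 lies between 424 and 716 CPM in the E. coli libraries and at or below 253 CPM in the other 6, while SOCS2-AS1 rests on 1 to 16 counts per library.

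In the edgeR model fitted over all rows and all 9 libraries, the SOCS2 row had a log2 fold change of 2.89 ± 0.37 (SE) with E. coli vesicles against control, a 7.40-fold higher level. It is 1 of 7 rows, or 0.19% of the 3679 tested, with a Benjamini-Hochberg adjusted p under 0.05 in that comparison. This call led to its choice and is not evidence here. With V. cholerae vesicles against control the log2 fold change was 1.19 ± 0.37 (SE), or 2.29-fold. E. coli against V. cholerae vesicles gave 1.69 ± 0.34 (SE), or 3.23-fold. The 2 comparisons with control use the same 3 control libraries. Over all rows tested the median log2 fold change was -0.01 with E. coli and 0.01 with V. cholerae vesicles. The 536 tested coding rows with only non-coding exons opposite, the class SOCS2 belongs to, had medians of -0.07 and -0.01. In that class 1 of 536 rows was called with E. coli vesicles, against 7 of all 3679 tested. That row was SOCS2, chosen by this call, so the count is a description only.

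Taken by replicate number, the SOCS2 difference was unequal. E. coli replicate 1 was 12.5-fold above control replicate 1 (95% interval 7.82 to 21.1, exact and for counting error only), and E. coli replicate 2 was 8.08-fold above control replicate 2 (5.43 to 12.4). In replicate 3 the ratio was 4.26 (3.10 to 5.93). These intervals give the counting error of each ratio and test nothing, since SOCS2 was chosen by these levels. For V. cholerae vesicles the ratios were 4.41 (2.66 to 7.67) in replicate 1 and 2.77 (1.77 to 4.45) in replicate 2. In replicate 3 the ratio was 0.896 (0.614 to 1.32), the lowest of the 3. E. coli against V. cholerae libraries gave 2.83 (2.21 to 3.65), 2.91 (2.22 to 3.85) and 4.75 (3.59 to 6.35).

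**Figure D3:**
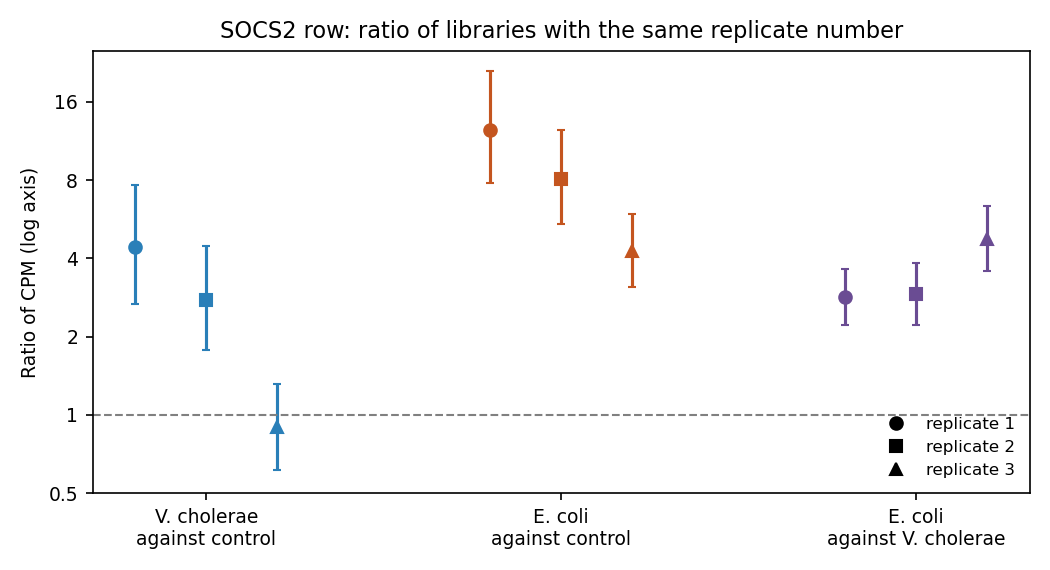
Ratio of SOCS2 CPM between libraries with the same replicate number, on a log axis, with exact 95% intervals that cover counting error only and a dashed line at 1. The E. coli to control ratios run from 4.26 to 12.5 and the V. cholerae to control ratios from 0.896 to 4.41, with the lowest of each in replicate 3.

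Replicate 3 of every group stood apart in the data as a whole. Deviations from the group means correlated at 0.450 to 0.677 between the replicate 3 libraries of different groups, across rows, and V. cholerae replicate 3 was the deepest library. With replicates 1 and 2 only, the SOCS2 log2 fold change was 3.30 for E. coli and 1.78 for V. cholerae vesicles. E. coli replicates 1 and 2 also differed from the other 7 libraries in where their counts lay. Rows were split by the exonic distance from the 3′ end of an opposite coding gene to the part they overlap. Rows 3000 nt or further away held, in these libraries, 8.72% and 7.64% of the counts of rows closer than 500 nt, where the remaining 7 had 12.6% to 13.6%. Rows of mitochondrial sequence (MIR6723 and MIR4461) took 4.13% to 4.97% of the counts in E. coli libraries, 1.79% to 3.54% in controls and 2.19% to 5.02% in V. cholerae libraries. E. coli replicate 3, with 13.03% on the first measure, held 424 CPM in the SOCS2 row, above every control and V. cholerae library. The part of these measures in the size of the SOCS2 difference was not tested.

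The SOCS2-AS1 row was much thinner and did not pass the filter on low counts, so 1 of the 2 members was in the tested set. It held 8, 4 and 16 counts in control replicates 1, 2 and 3, or 24.2, 11.0 and 31.9 CPM. With V. cholerae vesicles it held 1, 1 and 7 counts, or 2.91, 2.92 and 9.05 CPM. With E. coli vesicles it held 7, 5 and 4 counts, or 20.2, 14.4 and 8.87 CPM. The E. coli libraries overlapped both other groups, and the V. cholerae libraries lay below all controls, by a narrow gap between 9.05 and 11.0 CPM. Of the rows tested, 3.64% were lower with V. cholerae than in control without overlap. Those rows do not include SOCS2-AS1, and all 3679 of them had a higher V. cholerae mean. The share is therefore not that of rows with as few counts. Group means were 22.3 ± 10.6, 4.96 ± 3.54 and 14.5 ± 5.67 CPM for control, V. cholerae and E. coli (SD, n = 3).

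Summed over libraries, SOCS2-AS1 had 28 counts in controls, 9 with V. cholerae and 16 with E. coli vesicles. Per unit of depth, V. cholerae stood at 0.264 of control (95% interval 0.109 to 0.575, exact and for counting error only) and E. coli at 0.599 of control (0.302 to 1.15). In the fit with no filter on low counts the log2 fold changes were -1.89 ± 0.63 for V. cholerae and -0.71 ± 0.57 for E. coli vesicles (SE), and E. coli against V. cholerae was 1.18 ± 0.68. The V. cholerae value was -2.88 without V. cholerae replicate 3. With replicates 1 and 2 only, E. coli vesicles stood at 0.02, so no lower level was left there. At this depth the E. coli difference was not detectable.

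By group means, the rows of the locus did not follow each other. SOCS2 was highest where SOCS2-AS1 was intermediate, in the E. coli libraries, and SOCS2-AS1 was highest where SOCS2 was lowest, in the controls. The order of SOCS2-AS1 rests on 1 to 16 counts per library, and its E. coli libraries overlapped both other groups. With replicates 1 and 2 only, its log2 fold change for E. coli against control was 0.02, so its intermediate place is not settled. Divided by exonic length, SOCS2 stood at 11.5 ± 3.11 CPM per kb in controls and SOCS2-AS1 at 5.85 ± 2.77 (SD, n = 3). With V. cholerae vesicles these levels were 27.3 ± 12.6 and 1.30 ± 0.93 CPM per kb (SD, n = 3). With E. coli vesicles they were 86.6 ± 22.02 and 3.802 ± 1.49 CPM per kb (SD, n = 3).

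The share of SOCS2-AS1 in the counts of both rows does not depend on depth or scaling. Its denominator holds the SOCS2 counts by which the row was chosen, so a higher SOCS2 level lowers it by construction, and the shares and their ranks among pairs are a description only. It was 29.6%, 12.5% and 24.2% in control replicates 1, 2 and 3. With V. cholerae vesicles it was 1.14%, 1.35% and 9.21%, and with E. coli vesicles 2.75%, 2.27% and 2.05%. Means were 22.1% ± 8.76, 3.90% ± 4.60 and 2.36% ± 0.35 (SD, n = 3). Without V. cholerae replicate 3 the V. cholerae mean was 1.24%. Over summed counts the share was 22.4% in controls (95% interval 15.4% to 30.7%), 3.78% with V. cholerae (1.74% to 7.06%) and 2.39% with E. coli vesicles (1.37% to 3.85%), where the exact binomial intervals cover counting error only. The sums behind them were 97 SOCS2 counts in controls, 229 with V. cholerae and 654 with E. coli vesicles.

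For comparison, 421 pairs were found in which a coding row and a non-coding one have exons opposite each other and hold at least 30 counts together. In controls the non-coding row held a median of 78.0% of a pair's counts, and in 267 of the 421 pairs it held the larger part, unlike at SOCS2. The median change of the share was 0 percentage points with either vesicle, with quartiles of -3.22 and 1.46 for E. coli and -1.96 and 1.98 for V. cholerae. At SOCS2 the share changed by -20.0 points with E. coli, and 16 pairs went further down. It changed by -18.6 points with V. cholerae, and 9 pairs went further down. A share that was lower without overlap was seen in 8.79% of pairs for E. coli and 4.04% for V. cholerae vesicles.

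Rows whose levels moved most like SOCS2 were found by the root mean square difference of log2 CPM, each row centred on its own mean, over the 9 libraries. The nearest of the tested rows was LOC100130238 (0.43), followed by C11orf68 (0.45), MYBBP1A (0.55), CCDC85B (0.60) and CHMP2B (0.71), where the median over all rows tested was 1.32. LOC100130238, an uncharacterised locus, held 6, 12 and 11 counts in controls, 47, 48 and 17 with V. cholerae and 98, 86 and 54 with E. coli vesicles. It shared with SOCS2 a V. cholerae replicate 3 at the control level. C11orf68 went from 84.0 CPM in controls to 160 with V. cholerae and 475 with E. coli vesicles. On the centred log2 scale its V. cholerae replicate 3 (-0.33) lay near V. cholerae replicates 1 (-0.18) and 2 (-0.03). It also lay near control replicate 3 (-0.39), while control replicates 1 and 2 stood at -1.65 and -1.52. MYBBP1A, named for a MYB-binding protein and opposite the sphingosine-1-phosphate transporter SPNS2, went from 109 to 247 and 490 CPM, and CCDC85B from 111 to 200 and 354 CPM. CHMP2B, of membrane scission by the ESCRT machinery, went from 16.8 to 28.4 and 57.8 CPM and had 1 to 30 counts per library. These are likenesses of pattern among rows, described without a test.

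**Figure D4:**
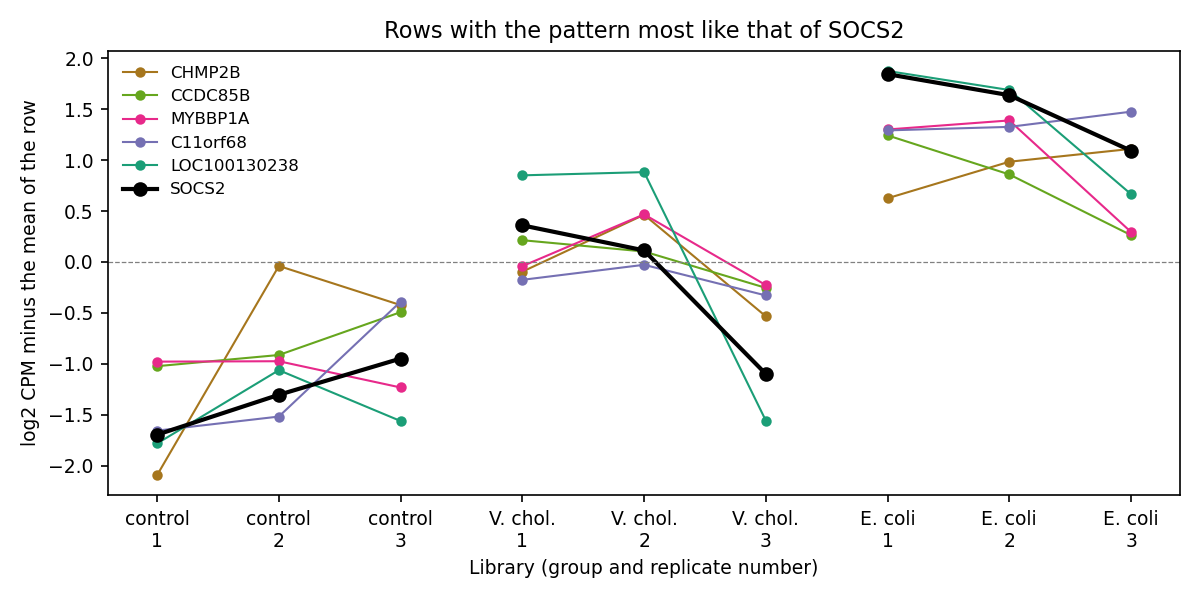
Log2 CPM of SOCS2 (black) and of the 5 tested rows most like it, each minus its own mean over the 9 libraries, where lines only link the libraries of a row within a group. The E. coli group has the highest mean in all 6 rows, which is tied to picking 5 of them for their likeness to SOCS2. E. coli replicate 3 lies below V. cholerae replicates 1 and 2 in LOC100130238 and below V. cholerae replicate 2 in MYBBP1A. SOCS2 and LOC100130238 drop to -1.10 and -1.56 in V. cholerae replicate 3.

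For SOCS2-AS1 the nearest rows were CASKIN2 (0.41), DUS1L (0.42), DUSP28 (0.43), MAP3K14-AS1 (0.45) and LYZ (0.45), where the median over all rows tested was 0.85. They share few counts, with 5 to 47 per library, and low values in V. cholerae replicate 1. V. cholerae replicate 2 was low as well except in LYZ, where it held 9 counts, as did control replicate 2. MAP3K14-AS1, for instance, had 22, 34 and 47 counts in controls, 15, 11 and 38 with V. cholerae and 33, 22 and 27 with E. coli vesicles.

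The other 7 SOCS family rows could not be tested. SOCS1 had 0 counts in all libraries, SOCS3 1 and CISH, the member closest to SOCS2 in sequence, 3 over the 9 libraries. SOCS5 had 2, SOCS6 9, SOCS4 25 and SOCS7 32, against 980 in the SOCS2 row. These are raw counts, not divided by gene length, and with the strand of the reads unsettled they do not say that those genes were silent. For SOCS4 the counts were 0 to 3 in controls, 1 to 9 with V. cholerae and 2 to 5 with E. coli vesicles, so a difference could not be detected at this depth.

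**Figure D5:**
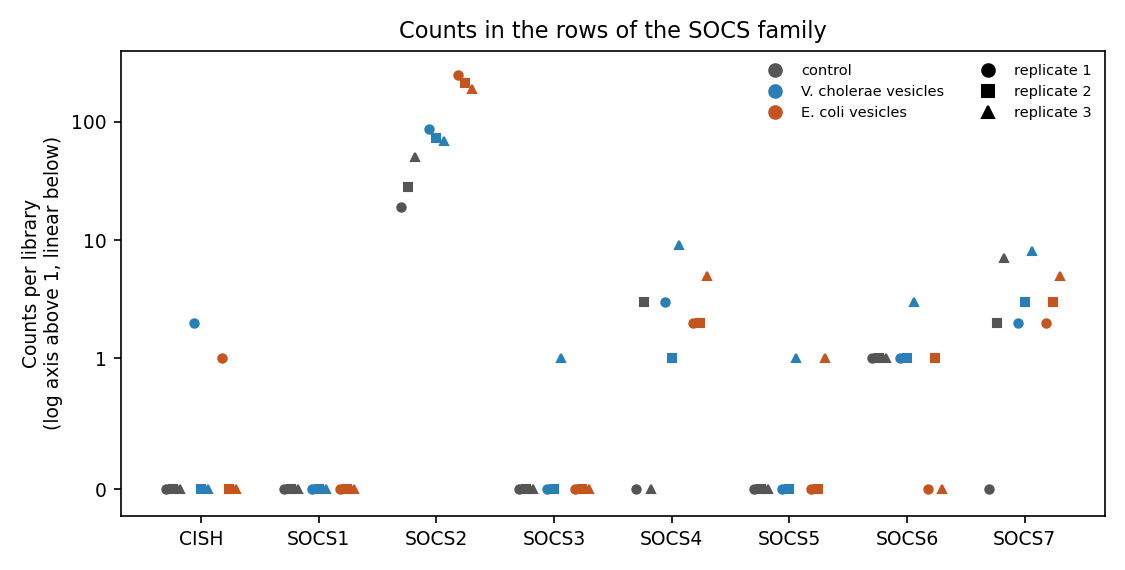
Counts per library (log axis above 1, linear below) in the 8 rows of the SOCS family, coloured by group with a marker for each replicate. SOCS2 holds 19 to 248 counts per library, while the highest value of any other member is 9, in SOCS4.

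The rest of the pathway, the aryl hydrocarbon receptor list and the Toll-like receptor and NF-kB list were read from 10 lists in all. These hold 133 gene symbols other than SOCS2, where old and new symbols of a gene count apart (TCEB2 and ELOB, TCEB1 and ELOC). They matched 129 rows (CSF2RA more than once), of which 20 were tested and 29 had 0 counts. With E. coli vesicles against control, edgeR called 0 of the 20 rows, against 0.19% of all rows tested, with 2 rows (CCND1 and IFNLR1) at an unadjusted p under 0.05, as were 11.3% of all rows, and 0 called by DESeq2 and by limma voom. Their median log2 fold change was -0.02, and 10 of 20 were above 0. With V. cholerae vesicles 1 of the 20 rows fell, against 0.0272% of all rows tested (0.0544% in either direction), and the median was 0.11. That row was the only one at an unadjusted p under 0.05, where 2.72% of all rows stood. The lists were chosen with earlier results of these data known, so 1 call among 20 rows is a description and says nothing about enrichment. In the direct comparison of vesicles edgeR called 0 of the 20, with 2 rows (IFNLR1 and PTPN6) at an unadjusted p under 0.05 (9.05% of all rows) and 0 called by DESeq2 and limma voom. It called 0 of all 3679 rows there. With the replicate number as a block edgeR called 2.28%, 0.353% and 0.0544% of all rows in the 3 comparisons, and of the 20 list rows again IFNLR1 alone, with V. cholerae vesicles.

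Of the ligands, 0 of 20 rows could be tested. Among receptors 5 rows could. IFNLR1, a subunit of the interferon lambda receptor, fell with V. cholerae vesicles from a mean of 158 to 38.4 CPM, a log2 fold change of -1.95 ± 0.34 (SE, edgeR adjusted p = 0.0392). The list that holds IFNLR1 was chosen with earlier results of these data known, so this call is not independent evidence. Leaving out any 1 of replicates 1 and 2 of either group ended that call, with adjusted p from 0.156 to 0.339, and it was also lost with library sizes alone (adjusted p = 0.215), with only the 2 groups (adjusted p = 0.0589), with limma voom (adjusted p = 0.0870) and with V. cholerae replicates 1 and 2 summed (adjusted p = 0.202). With E. coli vesicles IFNLR1 stood at 94.4 CPM (edgeR adjusted p = 0.39 against control). IFNGR2 of the interferon gamma receptor stood at 88.9, 112 and 123 CPM in control, V. cholerae and E. coli libraries, and LEPR, the leptin receptor, at 60.1, 67.5 and 73.8.

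Few rows of the kinases and transcription factors could be tested. JAK3, a kinase that couples to the common gamma chain, was the only JAK row tested and stood at 21.6, 30.3 and 21.2 CPM in control, V. cholerae and E. coli libraries. STAT6, which acts downstream of interleukin-4, was the only STAT row tested, at 110, 80.2 and 105 CPM. STAT5A and STAT5B, the factors most tied to SOCS2, had 2 and 6 counts over the 9 libraries. GHR, the growth hormone receptor, did not pass the filter either. Among partners of the SOCS box, CUL5 stood at 106, 75.5 and 87.9 CPM and RNF7 at 41.4, 44.4 and 37.1, and neither passed the test.

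Other inhibitors of the pathway did not pass the test either. The phosphatase PTPN6 stood at 44.8, 59.7 and 33.4 CPM in control, V. cholerae and E. coli libraries, PIAS3, an inhibitor of STAT3, at 46.1, 34.0 and 46.1, and PTPN2 at 24.8, 36.02 and 33.8. Of genes that STAT factors can drive, the cell cycle regulator CCND1 stood at 105, 68.9 and 54.9 CPM, a log2 fold change of -0.92 ± 0.32 (SE, edgeR adjusted p = 0.276) with E. coli vesicles. IRF1 stood at 49.6, 51.2 and 41.1 CPM. AHR, the aryl hydrocarbon receptor, stood at 24.2, 23.3 and 28.7 CPM, and its target NQO1 at 24.4, 35.9 and 35.7. Of the Toll-like receptor and NF-kB list, which holds the route for lipopolysaccharide, CD14 stood at 27.1, 34.2 and 17.0 CPM, IRAK4 at 25.5, 32.5 and 33.8 and TRAF6 at 23.3, 18.3 and 20.9, and none of these passed the test.

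Because reads may lie on the strand opposite the named gene, the same lists were also read from rows with exons opposite a list gene. Of 26 such rows outside the locus, 11 were tested, and edgeR, DESeq2 and limma voom called 0 of them in each of the 3 comparisons. At an unadjusted p under 0.05 there was 1 row with E. coli (NUDT17, opposite PIAS3), 1 with V. cholerae (TIPARP-AS1) and 2 between vesicles (EGFR-AS1 and TIPARP-AS1). TIPARP-AS1, opposite the aryl hydrocarbon receptor target TIPARP, held 7, 17 and 15 counts in controls, 43, 45 and 37 with V. cholerae and 9, 6 and 34 with E. coli vesicles. Its log2 fold change was 1.59 ± 0.51 (SE) with V. cholerae and 0.33 ± 0.54 with E. coli vesicles, and neither passed the test.

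Few neighbours of SOCS2 on 12q22 could be tested. CRADD, the next coding gene downstream, had 1 count over the 9 libraries, and MRPL42, the nearest coding gene upstream, had 6. NUDT4, with exons opposite UBE2N, stood at 20.8, 28.7 and 29.4 CPM in control, V. cholerae and E. coli libraries, and PLXNC1, an axon guidance receptor, at 128, 129 and 115 CPM. Their log2 fold changes with E. coli vesicles were 0.47 ± 0.41 and -0.14 ± 0.37 (SE), and neither passed the test. UBE2N had 0 to 23 counts per library and was not tested.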

How the data were processed

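The authors deposited a table of raw counts of reads (rows are genes, columns the 9 libraries) from single 50 bp reads of stranded, poly-A selected libraries per the labels' protocols. Per the submitters' processing notes, the tools were HTSeq 0.6.1, Cufflinks 2.2.1, TopHat2 2.0.12 with Bowtie2 2.2.3, SAMtools 0.1.19 and FastQC, on hg19. These sources do not give the strand setting, annotation or filters.

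The tests used edgeR 4.0.16 under R 4.3.3. Rows passing filterByExpr (minimum count 10, minimum total 15; 3679 rows holding 94.4% of counts) were scaled by TMM and tested in 1 robust quasi-likelihood fit of 9 libraries by group, with calls at 0.05 after Benjamini-Hochberg adjustment. SOCS2-AS1 did not pass, so its values come from the fit with no filter. The SE is the log2 fold change divided by the square root of F. Poisson, binomial and ratio intervals are exact, at 95%. Likeness used log2 CPM with a prior count of 2. Exon overlaps were matched by name to GENCODE 29 with unique names. The fit was tested on simulated counts drawn independently for each library. They held no effect shared by libraries of the same replicate number, so that test does not cover such an effect.

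The members and lists were chosen with earlier results of these data known. Named rows are the members, list rows that were called, up to 3 further rows per list by mean CPM, and the 5 rows most like each member; rows read opposite list genes, the SOCS family, STAT5 rows and neighbours on 12q22 were named beside these after their values were seen.

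Same-numbered libraries correlated at 0.115 to 0.677 in their deviations from group means (threshold 0.1), so a replicate block was fitted. For replicates 1 and 2 alone, correlations were 0.115 to 0.328 within a number and 0.133 to 0.350 across numbers. V. cholerae replicates 1 and 2 differed little (chi-square per degree of freedom 1.05, against 1.33 and 1.90 for replicates 1 and 2 of control and E. coli and 4.78 to 8.76 with replicate 3). Both were kept, and an alternative sums them. Other settings tried were no filter, RLE factors, unscaled library sizes, CPM at least 5 in at least 3 libraries, no robust option, only the 2 groups compared, DESeq2 1.42.0, limma 3.58.1 voom, the block and leaving out each library. Replicates 1 and 2 only and the summed libraries were added after the data were seen.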

Additional observations from a re-analysis of the deposited data

How the results depend on the processing

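The SOCS2 row kept its direction in all 3 comparisons under all 20 alternatives: 2.72 to 3.30 on the log2 scale for E. coli against control, 0.88 to 1.78 for V. cholerae against control and 1.33 to 2.00 for E. coli against V. cholerae. Among these, only replicates 1 and 2 alone moved it beyond the spread between replicates, to 3.30 for E. coli against control. None of the alternatives took replicate 3 alone, where the SOCS2 ratio of V. cholerae to control was 0.896 (log2 -0.158). With the replicate block the SOCS2 row stood at 2.79, 1.06 and 1.74, and SOCS2-AS1 at -0.73, -1.92 and 1.19. SOCS2-AS1 stood at 0.016 for E. coli against control and 2.45 for E. coli against V. cholerae with replicates 1 and 2 alone. Leaving out single libraries gave -2.88 to -1.49 for V. cholerae against control and 0.88 to 2.15 for E. coli against V. cholerae. Its direction did not change in the other alternatives run. The shares of SOCS2-AS1 over summed counts differed from the means by less than their spread. Replicates 1 and 2 alone, and the summed V. cholerae libraries, were chosen after seeing the data. The cause of these shifts was not tested.

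Counts of all rows called changed far more. For E. coli against control, 7 rows became 35 with DESeq2, 40 with no filter, 84 with the replicate block and 793 with replicates 1 and 2 alone, and 3 to 236 when single libraries were left out. For V. cholerae against control, 2 became 4 with DESeq2, 0 with limma voom, 13 with the replicate block, 5 with no filter, 61 with replicates 1 and 2 alone and 1 with V. cholerae replicates 1 and 2 summed, and 0 to 5 when single libraries were left out. For E. coli against V. cholerae, 0 (333 at an unadjusted p under 0.05) became 3 with the CPM filter, 1 with only the 2 groups, 5 with DESeq2, 2 with the replicate block, 31 with no filter and 766 with replicates 1 and 2 alone, and 0 to 204 when single libraries were left out. The highest of each came without E. coli replicate 3, except for V. cholerae against control, where it came without V. cholerae replicate 3. Of the 20 list rows the block called the same number as without it in each comparison. Of the cell type markers the block added a lower KRT8 with V. cholerae vesicles (edgeR adjusted p = 0.00430). SOCS2-AS1 rests on 1 to 16 counts per library.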
